A study of Mus musculus with 2 samples.

Results

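The genes described are 8 mouse genes of the ETS transcription factor family that are linked to epithelial or broadly expressed programmes: Elf5, Ehf, Elf3, Elf1, Ets1, Ets2, Spdef and Etv6. They were taken by name from the 21938 protein-coding genes measured, and each was described by the accessible chromatin regions that overlap its gene body or lie within 50 kb of one of its transcription start sites (its window, in mm10 coordinates). Over both libraries these windows held 341 of the 275294 merged regions. A region with a peak in both libraries was called shared, and 232 of the 341 were shared, 63 had a peak only in the doxycycline library and 46 only in the solvent library. Single-cell ATAC-sequencing, in which a transposase cuts open chromatin of single nuclei, had been carried out on primary mouse mammary gland organoids grown in matrigel. The organoids had been treated for 7 days. Both groups were C57BL/6J cells of genotype shTRPS1.34 ki/+; CAG-rtTA3 tg/+, that is, they carried an inducible short hairpin RNA against Trps1 and the reverse transactivator rtTA3 under the broadly active CAG promoter. The DOX group received 0.1 µg/ml doxycycline, which switches the hairpin on, and the EtOH group received only the solvent ethanol. Doxycycline and hairpin cannot be told apart in this design, because both groups carry the transgenes and no hairpin against another target is among the groups analysed here. Each group was 1 library, with nuclei of several mice mixed, so that no difference has a replicate check and no test could be made. The intervals given are exact 95% intervals that cover counting error only. The comparison asks which chromatin regions open or close early after depletion of TRPS1, a repressor of the GATA family.

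ETS factors share a DNA-binding domain that reads a core of GGA within a longer purine-rich site. In the mammary gland ELF5 is known as a regulator of luminal progenitors and of the milk-secreting alveolar fate that they enter under prolactin signalling. EHF and ELF3 are epithelial members, and SPDEF is known from secretory and hormone-sensing luminal epithelium. ELF1, ETS1 and ETS2 are active in many cell types, including blood cells, and ETV6 is a repressor known from haematopoiesis. The assay reads how open the chromatin of these genes is, not how much RNA or protein they make.

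The libraries held 3071 nuclei for DOX and 3104 for EtOH, with a median of 75296 and 66790 counts per nucleus and 23 barcodes in common. Nuclei were clustered on all shared regions other than those of ETS factor genes. Cluster 1 was luminal progenitor-like, with higher accessibility of Kit, Csn3, Aldh1a3, Lbp and Wfdc18 but not of Cd14, Ltf and Trf, and it held 52.8% of the EtOH nuclei (1638) and 1.95% of the DOX nuclei (60). Cluster 2 was immune-like and held 41.8% of the DOX nuclei (1283) and 9.12% of the EtOH nuclei (283). Clusters 4 and 5 were hormone-sensing luminal-like and together held 7.20% of DOX (221) and 32.8% of EtOH nuclei (1018). Cluster 3 met no marker list and stayed unnamed. It held 44.9% of the DOX nuclei (1380) and 7 EtOH nuclei, so that it cannot be told apart from the DOX library itself. Cluster 6 also stayed unnamed (83 DOX and 136 EtOH nuclei), and a last cluster of low depth was not used for levels. Because the share of immune-like nuclei differed so much, the main ratios are given over all nuclei and over the 1788 DOX and 2821 EtOH nuclei outside the immune-like cluster. The other classes also differed in size outside it (221 DOX and 1018 EtOH hormone-sensing nuclei, 60 and 1638 luminal progenitor-like nuclei), so that in both ratios fewer nuclei of a type and less open chromatin per nucleus cannot be told apart. At a clustering resolution of 1 in place of 0.5, the luminal progenitor-like class held 23 DOX and 640 EtOH nuclei (0.749% and 20.6%) and the hormone-sensing class 136 and 1025. Another cluster there (37 DOX and 988 EtOH nuclei) was highest in the luminal progenitor list, at a median log2 fold of 0.53. It stayed unnamed because the basal list was close, at 0.26. A cluster of 164 DOX and 139 EtOH nuclei, with the same leading gene as cluster 6 (Ankrd65), was named by the fibroblast list there. Over all nuclei the median log2 ratio of shared regions was -0.13, and a ratio near this value is no difference from the typical region. The part that doublets or the immune-like nuclei play in the results was not tested beyond these values.

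The sequences on which the description turns come from regions of the windows, each shown as its central 300 bases on the + strand of GRCm38.p6 (the mm10 build). The region 21.2 kb upstream of Elf5 was chosen as the most open Elf5 region in luminal progenitor-like nuclei. The Etv6 region had the highest ratio of all member regions, the Elf3 region the highest level of its gene, and the Ets2 region the highest ratio outside the immune-like cluster. The Elf5 region with the lowest DOX against EtOH ratio completes the set. Capitals mark an ETS core motif, AGGAAG or CGGAAG on either strand (CTTCCT or CTTCCG as read here).
Elf5 region 21.2 kb upstream (chr2:103390364-103390663): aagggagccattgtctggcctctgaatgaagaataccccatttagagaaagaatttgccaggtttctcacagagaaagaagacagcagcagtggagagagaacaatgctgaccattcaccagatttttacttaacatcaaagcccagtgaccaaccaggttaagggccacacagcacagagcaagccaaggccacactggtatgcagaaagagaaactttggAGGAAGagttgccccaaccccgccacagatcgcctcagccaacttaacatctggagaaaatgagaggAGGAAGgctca
Elf5 region 48.7 kb upstream (chr2:103362791-103363090): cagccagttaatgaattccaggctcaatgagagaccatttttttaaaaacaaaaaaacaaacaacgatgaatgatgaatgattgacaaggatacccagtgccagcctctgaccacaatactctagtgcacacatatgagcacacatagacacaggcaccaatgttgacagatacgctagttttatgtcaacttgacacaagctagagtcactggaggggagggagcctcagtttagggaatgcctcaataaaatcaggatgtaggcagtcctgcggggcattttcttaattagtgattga
Etv6 region 14.7 kb upstream (chr6:134020837-134021136): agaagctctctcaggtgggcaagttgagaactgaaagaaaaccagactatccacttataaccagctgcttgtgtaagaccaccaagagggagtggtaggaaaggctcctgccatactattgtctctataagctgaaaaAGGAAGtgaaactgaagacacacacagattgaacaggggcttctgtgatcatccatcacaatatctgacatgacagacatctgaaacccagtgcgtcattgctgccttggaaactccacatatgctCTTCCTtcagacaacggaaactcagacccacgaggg
Elf3 region 30.9 kb downstream (chr1:135227477-135227776): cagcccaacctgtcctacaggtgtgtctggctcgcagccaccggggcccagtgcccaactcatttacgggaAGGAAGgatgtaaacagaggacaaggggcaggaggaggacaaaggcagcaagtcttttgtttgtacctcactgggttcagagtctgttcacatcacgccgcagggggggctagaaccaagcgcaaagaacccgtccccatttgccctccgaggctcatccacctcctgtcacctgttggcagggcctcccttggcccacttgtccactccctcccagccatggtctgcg
Ets2 region 9.36 kb upstream (chr16:95692564-95692863): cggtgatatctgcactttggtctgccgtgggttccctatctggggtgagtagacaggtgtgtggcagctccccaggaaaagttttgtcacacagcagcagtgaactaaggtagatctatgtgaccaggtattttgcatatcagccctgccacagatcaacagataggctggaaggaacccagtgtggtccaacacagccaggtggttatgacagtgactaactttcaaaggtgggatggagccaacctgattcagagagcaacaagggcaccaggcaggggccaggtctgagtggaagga
Of these pieces the Elf5 region at 21.2 kb and the Etv6 region held 2 such motifs each, that of Elf3 held 1, and the Elf5 region at 48.7 kb and the Ets2 region held 0. A motif match is a description of the letters and not of binding.

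Elf5 (chr2:103411688-103450989, + strand) was most open in luminal progenitor-like nuclei. Its 26 shared regions summed to 214 CPM (counts per 1000000 counts that the same nuclei had in shared regions) in luminal progenitor-like EtOH nuclei and to 193 CPM in the 60 luminal progenitor-like DOX nuclei. Cluster 3 of the DOX library followed with 186 CPM, then the hormone-sensing luminal-like nuclei with 134 CPM in EtOH and 127 CPM in DOX, cluster 6 with 111 and 96.8 CPM, and the immune-like nuclei with 67.5 and 66.1 CPM. The order of these classes was the same in both libraries, and the immune-like level was the lowest in each. These sums include the promoter of the neighbouring gene Cat. It gave 35.4 of the 67.5 CPM in immune-like EtOH nuclei and 31.9 of the 214 CPM in luminal progenitor-like EtOH nuclei. In the 60 luminal progenitor-like DOX nuclei, single regions of a few CPM rest on few counts.

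The regions of the Elf5 window did not share this order, and 1 distal region carried much of the difference between classes. The region at chr2:103390016-103391011, 21.2 kb upstream of the most 5′ start site and outside any gene, had 73.2 CPM in luminal progenitor-like EtOH nuclei, 60.5 CPM in luminal progenitor-like DOX nuclei and 56.2 CPM in cluster 3. In hormone-sensing luminal-like nuclei the same region had 10.2 CPM (cluster 4) and 3.03 CPM (cluster 5) in EtOH and 6.34 and 1.35 CPM in DOX. Immune-like nuclei had 3.01 CPM in EtOH and 2.01 CPM in DOX. The region was thus open in luminal progenitor-like and cluster 3 nuclei and near the immune-like level in cluster 5. The start sites of Elf5 behaved otherwise. The region at the most 5′ start (chr2:103411159-103412017) was most open in hormone-sensing cluster 5, with 10.2 CPM in EtOH and 9.03 CPM in DOX, against 2.61 and 2.02 CPM in luminal progenitor-like nuclei and 3.09 CPM in cluster 3. The start site region 12.3 kb further downstream (chr2:103423616-103424413) showed the opposite order, with 12.0 CPM in luminal progenitor-like EtOH nuclei and 10.5 CPM in cluster 3, against 5.08 and 6.26 CPM in the hormone-sensing clusters of EtOH. As a reference inside the same window, the promoter of the housekeeping catalase gene Cat (chr2:103484674-103485593) lay between 24.5 and 35.4 CPM in every cluster of both libraries.

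**Figure D1:**
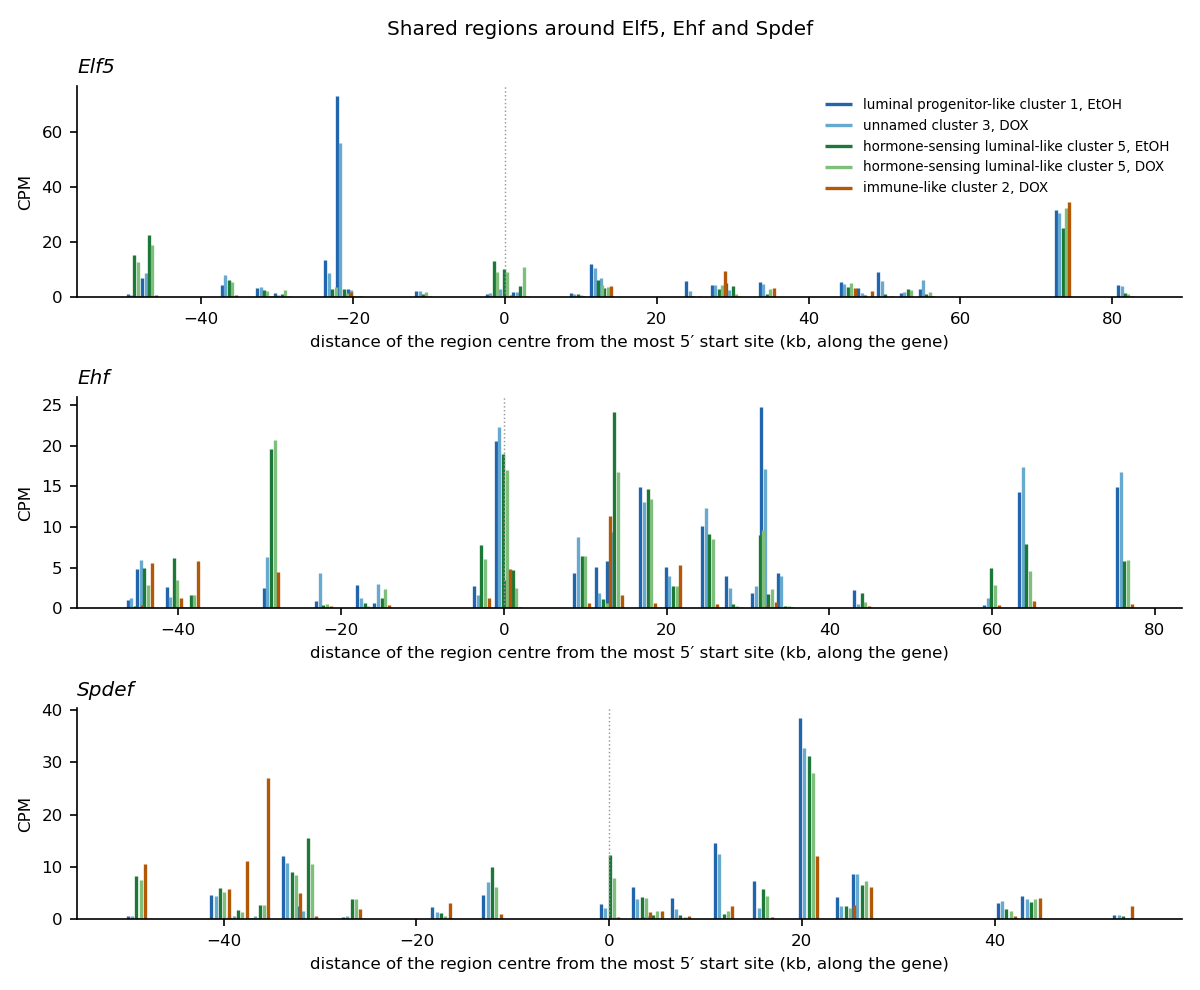
Accessibility in CPM of each shared region of Elf5, Ehf and Spdef (one panel each) against the distance of its centre from the most 5′ start site in kb, with bars for luminal progenitor-like cluster 1 of EtOH, cluster 3 of DOX, hormone-sensing cluster 5 of both libraries and immune-like cluster 2 of DOX. The Elf5 region 21.2 kb upstream stands at 73.2 CPM in cluster 1 of EtOH and 56.2 CPM in cluster 3 of DOX but at 3.03 CPM or less in cluster 5, whereas the Ehf region 28.6 kb upstream and the Spdef start are led by cluster 5.

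Over all nuclei Elf5 chromatin was less open after doxycycline, and outside the immune-like cluster it was not. The Elf5 window had 131 CPM in DOX and 169 CPM in EtOH, a log2 ratio of -0.36 (interval -0.40 to -0.33). Outside the immune-like cluster it had 173 CPM in DOX and 177 CPM in EtOH, a log2 ratio of -0.03 (-0.06 to 0.01). Its promoter regions, those within 1 kb of a start site, had log2 ratios of -0.24 (-0.33 to -0.15) over all nuclei and 0.12 (0.02 to 0.22) outside the immune-like cluster. Within named classes the window had a log2 ratio of -0.15 (-0.31 to 0.01) in luminal progenitor-like nuclei. It had -0.09 (-0.18 to 0.01) in hormone-sensing luminal-like and -0.03 (-0.17 to 0.11) in immune-like nuclei. The hormone-sensing clusters differed, with -0.15 (-0.29 to -0.02) in cluster 4 and 0.01 (-0.13 to 0.14) in cluster 5. In unnamed cluster 6 the window was lower as well, at -0.20 (-0.40 to -0.00). Set against the largest EtOH cluster, the largest DOX cluster had a lower window (cluster 3 DOX over cluster 1 EtOH, log2 -0.21, -0.25 to -0.17) and a like promoter (-0.01, -0.12 to 0.11). The 21.2 kb region differed by -0.38 (-0.45 to -0.31) between these clusters.

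Single Elf5 regions moved further than the window. The lowest was 48.7 kb upstream (chr2:103362482-103363399), with 1.08 CPM in DOX and 4.49 CPM in EtOH, log2 -2.05 (-2.36 to -1.76) over all nuclei and -1.7 (-2.04 to -1.38) outside the immune-like cluster. It was a hormone-sensing region, at 15.3 CPM in cluster 5 of EtOH against 1.16 CPM in luminal progenitor-like nuclei, and within hormone-sensing nuclei its log2 ratio was -0.54 (-0.95 to -0.15). A region 1.44 kb upstream (chr2:103409814-103410675) had the same form, with 13.3 CPM in cluster 5 of EtOH, a log2 ratio of -1.89 (-2.18 to -1.62) over all nuclei and -0.73 (-1.14 to -0.34) within hormone-sensing nuclei. Toward higher values, a region in an exon of Cat (chr2:103466772-103467662) had 3.64 CPM in DOX and 2.24 CPM in EtOH, log2 0.70 (0.46 to 0.94), and 1.27 (1.03 to 1.52) outside the immune-like cluster.

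Ehf (chr2:103263433-103303278, - strand), the epithelial neighbour of Elf5 on chromosome 2, was open in all luminal classes and low in immune-like nuclei. Its window had 154 CPM in luminal progenitor-like and 155 CPM in hormone-sensing EtOH nuclei, and 178, 163 and 137 CPM in luminal progenitor-like, cluster 3 and hormone-sensing DOX nuclei, against 39.1 CPM (EtOH) and 47.9 CPM (DOX) in immune-like nuclei. Over all nuclei the log2 ratio was -0.34 (-0.38 to -0.31), and outside the immune-like cluster it was 0.03 (-0.00 to 0.07). Within luminal progenitor-like nuclei the window ratio was 0.21 (0.04 to 0.37), and within hormone-sensing nuclei it was -0.17 (-0.27 to -0.08). In the latter the Ehf promoter regions were lower in DOX, at 37.8 against 49.8 CPM (log2 -0.40, -0.57 to -0.23), which held in cluster 4 (-0.40, -0.63 to -0.17) and in cluster 5 (-0.39, -0.65 to -0.14). The start sites differed in their cell class here too. The most 5′ start (chr2:103302924-103303831) had 19 to 21.3 CPM in the luminal classes of EtOH, the start 13.6 kb downstream (chr2:103289226-103290179) was led by hormone-sensing cluster 5 with 24.2 CPM in EtOH and 16.7 CPM in DOX, and the start 12.2 kb downstream (chr2:103290648-103291509) was led by immune-like nuclei with 9.60 and 11.4 CPM.

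The highest Ehf region, 38.5 kb upstream (chr2:103341320-103342214, log2 1.78, 1.40 to 2.18), drew 91.2% of its DOX counts from immune-like nuclei and had -0.42 (-1.22 to 0.33) without them. A pair of regions upstream of Ehf were higher outside the immune-like cluster, with 1.9 (1.5 to 2.31) at 15 kb (chr2:103317833-103318764) and 1.82 (1.5 to 2.14) at 22.2 kb (chr2:103324977-103325927). The lowest ratio of all member regions was also near Ehf, 44.0 kb downstream of its most 5′ start (chr2:103258653-103259984). That region had -2.33 (-2.85 to -1.84) over all nuclei and -2.12 (-2.72 to -1.57) outside the immune-like cluster. Within hormone-sensing nuclei it had -1.87 (-3.53 to -0.59), from few DOX counts.

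Elf3 (chr1:135253575-135258568, - strand), another epithelial member, was open in every luminal class at close levels and nearly closed in immune-like nuclei at its own start. The region at the most 5′ start (chr1:135258171-135259006) had 35.2 to 39.3 CPM in the luminal classes of EtOH and 36.6 to 43.6 CPM in those of DOX and cluster 3, against 3.36 CPM (EtOH) and 1.91 CPM (DOX) in immune-like nuclei. Its promoter sum had a log2 ratio of -0.41 (-0.48 to -0.35) over all nuclei and 0.15 (0.08 to 0.21) outside the immune-like cluster, so that the direction turned once immune-like nuclei were left out. The most open Elf3 region lay 30.9 kb downstream (chr1:135227162-135228091), with 60.6 CPM in luminal progenitor-like, 48.9 and 45.4 CPM in hormone-sensing and 2.73 CPM in immune-like EtOH nuclei, and 52.8 CPM in cluster 3. Its log2 ratio was -0.65 (-0.71 to -0.58) over all nuclei and -0.06 (-0.13 to 0.00) outside the immune-like cluster. The lowest Elf3 region, 48.1 kb downstream (chr1:135210035-135210978), was again led by hormone-sensing nuclei (11.5 CPM in cluster 4 of EtOH) and had -1.72 (-2.01 to -1.44) over all nuclei and -0.62 (-1.06 to -0.19) within them. The highest was the promoter of the aminopeptidase gene Rnpep (chr1:135282246-135283202, log2 1.46, 1.33 to 1.6), with 84.0% of its DOX counts in immune-like nuclei and 0.05 (-0.18 to 0.29) without them. The Elf3 window as a whole had -0.16 (-0.19 to -0.13) and -0.00 (-0.04 to 0.03).

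Spdef (chr17:27714352-27728955, - strand) was the member whose window stayed lower in DOX when immune-like nuclei were left out. The window had 101 CPM in DOX and 123 CPM in EtOH, log2 -0.28 (-0.32 to -0.25), and -0.31 (-0.35 to -0.26) outside the immune-like cluster, where 4.95% of the gene windows had a lower ratio. Within hormone-sensing luminal-like nuclei it had 103 CPM in DOX and 132 CPM in EtOH, log2 -0.36 (-0.46 to -0.26), with -0.46 (-0.60 to -0.32) in cluster 4 and -0.24 (-0.40 to -0.09) in cluster 5. The same comparison in luminal progenitor-like nuclei gave -0.11 (-0.32 to 0.10), and cluster 3 of DOX against cluster 1 of EtOH gave -0.27 (-0.32 to -0.22). Its promoter regions had 9.33 CPM in DOX and 14.5 CPM in EtOH, log2 -0.64 (-0.75 to -0.52), the largest promoter difference among the members, and -0.19 (-0.31 to -0.07) outside the immune-like cluster. The region at its most 5′ start (chr17:27728463-27729312) was led by hormone-sensing nuclei, with 9.83 and 12.2 CPM in clusters 4 and 5 of EtOH and 4.65 and 7.82 CPM in DOX. That region had log2 ratios of -1.69 (-1.93 to -1.44) over all nuclei and -0.87 (-1.31 to -0.45) within hormone-sensing nuclei. A start site region 11.9 kb downstream (chr17:27716619-27717533) was led by luminal progenitor-like nuclei instead, with 14.6 CPM in EtOH and 16.1 CPM in DOX, and had 0.22 (0.07 to 0.36) outside the immune-like cluster.

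A region in an intron of D17Wsu92e (chr17:27759799-27760689), 31.3 kb upstream, had -1.99 (-2.23 to -1.76) over all nuclei and -0.81 (-1.17 to -0.46) within hormone-sensing nuclei. The highest Spdef region, in another intron of D17Wsu92e (chr17:27764771-27765677), had 1.84 (1.66 to 2.03) with 96.6% of its DOX counts in immune-like nuclei, and -0.60 (-1.18 to -0.05) outside them.

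Elf1 (chr14:79481194-79582494, + strand), a broadly active member, had a window with no difference beyond counting error, with log2 ratios of -0.02 (-0.05 to 0.01) over all nuclei and -0.02 (-0.05 to 0.02) outside the immune-like cluster. Its promoter, which it shares with Wbp4 on the other strand (chr14:79480888-79481768), was most open in immune-like nuclei, at 47.0 CPM in DOX and 39.9 CPM in EtOH against 23.9 to 30.4 CPM in the luminal classes and cluster 3. The Elf1 promoter sum had 0.30 (0.24 to 0.36) over all nuclei and 0.10 (0.02 to 0.17) outside the immune-like cluster. Its highest region lay 39.5 kb upstream (chr14:79441178-79442111), with 4.26 CPM in DOX and 1.03 CPM in EtOH (log2 2.05, 1.74 to 2.38). This region was open in immune-like nuclei only among the clusters compared, at 10.7 CPM in DOX and 11.8 CPM in EtOH against at most 0.233 CPM in any other.

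Ets1 (chr9:32636221-32757820, + strand) had 2 promoter regions. The more open one lay 59.8 kb inside the gene at an internal start (chr9:32695524-32696448). This region was open alike in all classes, with 41.3 to 57.1 CPM in every cluster of both libraries and a log2 ratio of 0.07 (0.01 to 0.13). The introns of Ets1 held the larger differences. The highest (chr9:32651930-32652856) was an immune-like region with 11.0 CPM in DOX and 9.88 CPM in EtOH immune-like nuclei, and 2.19 (1.88 to 2.52) over all nuclei against 0.32 (-0.51 to 1.13) outside them. The lowest (chr9:32721987-32722830) was a hormone-sensing region with 11.6 CPM in both clusters of EtOH, with -2.07 (-2.38 to -1.78) over all nuclei and -0.34 (-0.70 to 0.01) within hormone-sensing nuclei. Upstream of the gene the neighbouring regions went both ways. At 26.7 kb (chr9:32608764-32610192) the ratio outside the immune-like cluster was -1.93 (-2.21 to -1.65), with 8.62 CPM in luminal progenitor-like EtOH nuclei, 2.59 CPM in those of DOX and 1.41 CPM in cluster 3. At 6.61 kb (chr9:32629200-32630025) it was 1.64 (1.49 to 1.78), with 4.22 and 8.94 CPM in luminal progenitor-like nuclei of EtOH and DOX and 19.4 CPM in cluster 3. The window sum hid both, with -0.12 (-0.15 to -0.09) over all nuclei and -0.01 (-0.05 to 0.02) outside the immune-like cluster. The former became 0.00534 once the median over single regions was set to 0. The median over all gene windows was 0.03, so that against the typical window the Ets1 window stayed lower.

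Ets2 (chr16:95702075-95721051, + strand), which like Ets1 is active in many cell types, was most open at its most 5′ start in immune-like nuclei (chr16:95701785-95702729), at 63.9 CPM in DOX and 66.1 CPM in EtOH against 32.5 to 41.7 CPM in the luminal classes and cluster 3. Its window had a log2 ratio of 0.05 (0.02 to 0.08) over all nuclei, 0.04 (0.01 to 0.07) outside the immune-like cluster and 0.18 (0.10 to 0.25) within hormone-sensing nuclei. A start site 14.4 kb downstream (chr16:95715998-95716907) was the lowest Ets2 region, with 10.8 CPM in DOX and 20.3 CPM in EtOH (log2 -0.91, -1.01 to -0.80), and -0.40 (-0.51 to -0.29) outside the immune-like cluster. It was led by hormone-sensing nuclei (29.1 and 30.8 CPM in EtOH, 17.6 and 23.7 CPM in DOX), with -0.56 (-0.80 to -0.33) within them. Going the other way, the region 9.36 kb upstream (chr16:95692242-95693185) had the highest ratio of any member region outside the immune-like cluster, at 4.96 CPM in DOX and 1.15 CPM in EtOH (log2 2.11, 1.79 to 2.43). It was higher in DOX in each luminal class, with 10.3 against 2.13 CPM in cluster 4 and 3.51 against 0.815 CPM in cluster 5. Luminal progenitor-like nuclei had 2.31 against 0.687 CPM, the former from few counts, and cluster 3 had 4.52 CPM. The highest Ets2 region over all nuclei (chr16:95731957-95732942, log2 1.76, 1.39 to 2.15) drew 88.6% of its DOX counts from immune-like nuclei and had 0.14 (-0.59 to 0.85) without them.

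Etv6 (chr6:134035700-134270158, + strand) had the most regions, 99 merged and 62 shared, and no shared region within 1 kb of a start site, so that no promoter value is given. Its window had a log2 ratio of 0.14 (0.11 to 0.16) over all nuclei and 0.07 (0.04 to 0.09) outside the immune-like cluster. Of its 62 shared regions 12 (19.4%) were higher in DOX by 2-fold or more over all nuclei, beside 13% of all shared regions, and 2 of 61 (3.28%) were outside the immune-like cluster, beside 5.36%. Introns held 11 of the 12 and 52 of the 62. The highest of all member regions lay 14.7 kb upstream (chr6:134020460-134021514), with 5.37 CPM in DOX and 0.967 CPM in EtOH (log2 2.47, 2.16 to 2.80). It had 13.5 CPM in DOX and 10.6 CPM in EtOH immune-like nuclei and at most 0.447 CPM in the other clusters, so that 98.2% of its DOX counts came from immune-like nuclei. An intronic region (chr6:134186104-134187042) was higher outside them, with 1.14 (0.95 to 1.34), and had 16.1 against 6.98 CPM in cluster 4 of DOX and EtOH. The lowest (chr6:133996270-133997059, 39.0 kb upstream) had -1.88 (-2.28 to -1.49) over all nuclei and -1.46 (-1.88 to -1.05) outside the immune-like cluster. In luminal progenitor-like nuclei it had 4.32 CPM in DOX and 4.37 CPM in EtOH, and in cluster 3 it had 1.03 CPM. The luminal progenitor-like DOX value rests on few counts, so that a difference between the libraries there cannot be judged.

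Read against all genes, the members did not stand out as a group. None of the 8 windows was 1.5-fold apart in either direction, over all nuclei or outside the immune-like cluster. Among the windows of all genes, 4.36% passed this limit upward in DOX and 4.85% downward over all nuclei, and 1.76% and 1.31% did outside the immune-like cluster. The median window ratio of the members was -0.14 over all nuclei, against 0.03 over all genes, and -0.01 outside the immune-like cluster, against -0.01. Among the 7 promoters measured, that of Spdef was 1.5-fold lower over all nuclei and none was higher, beside 6.01% of all gene promoters lower and 6.23% higher. Outside the immune-like cluster 0 of the 7 passed in either direction, beside 2.67% higher and 2.55% lower among all promoters. The 4 pan-epithelial marker genes, whose windows also lay below 0 in all 4 cases over all nuclei (median -0.23) and at a median of 0.07 outside the immune-like cluster, lay beside the epithelial members in this. The promoters of the 8 immune markers summed to 123 CPM in DOX and 39.3 CPM in EtOH over all nuclei, and to 20.8 and 20.4 CPM outside the immune-like cluster, with none of the 8 at 0.

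Levels per kb of shared region were used to set the genes beside each other. A promoter level here is the sum over all start site regions of a gene, divided by their joint width. Start sites with little accessibility lower it, so that the order need not be that of the most open starts. The most 5′ Ehf start alone had 20.6 CPM over 908 bases in luminal progenitor-like EtOH nuclei. In luminal progenitor-like EtOH nuclei the promoter level was lowest for Elf5 with 7.86 CPM per kb, followed by Ehf with 8.42, Spdef with 9.85, Elf1 with 22.3, Elf3 with 24.9, Ets1 with 28.0 and Ets2 with 31.7 CPM per kb. Cluster 3 of DOX kept this order except that Spdef (8.33 CPM per kb) lay just below Ehf (8.46 CPM per kb), with Elf5 at 7.82 CPM per kb. In hormone-sensing luminal-like nuclei the Spdef promoter had 7.71 CPM per kb in EtOH and 5.30 in DOX, and the Elf5 promoter 5.73 and 5.84 CPM per kb. Immune-like nuclei of EtOH had 2.07 CPM per kb at the Elf5, 3.74 at the Ehf, 2.81 at the Elf3 and 1.87 at the Spdef promoter, against 30.1 at the Elf1, 29.0 at the Ets1 and 36.7 CPM per kb at the Ets2 promoter. The promoters of Elf5, Ehf, Elf3 and Spdef were thus less open in immune-like than in luminal nuclei, whereas those of Elf1 and Ets2 were more open and that of Ets1 was at a like level. Neighbours in these orders, such as Ehf and Spdef, have no replicate by which their difference could be judged.

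**Figure D2:**
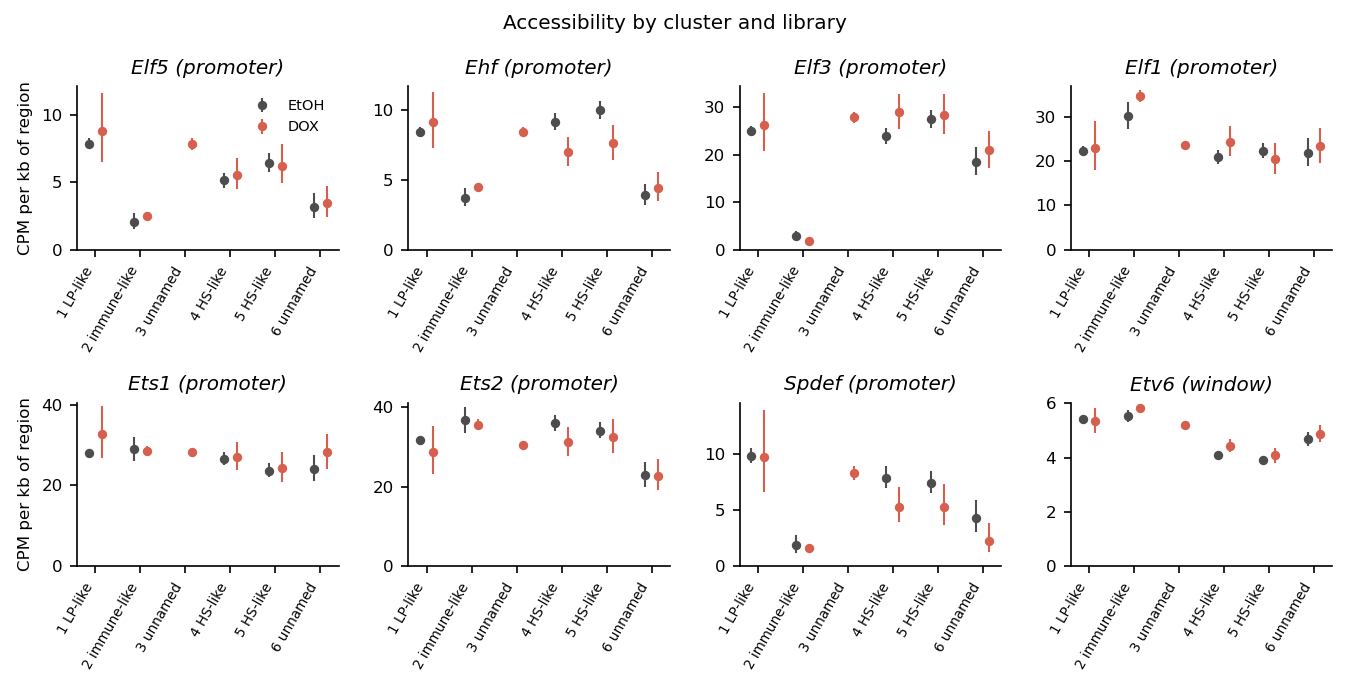
Promoter level of 7 genes, and window level of Etv6, in CPM per kb of shared region (points, with exact 95% counting intervals) by cluster for EtOH and DOX, where LP-like is luminal progenitor-like, HS-like is hormone-sensing luminal-like and cluster 3 has too few EtOH nuclei for a value. The Elf5 promoter has 7.86 CPM per kb in LP-like EtOH nuclei and 7.82 CPM per kb in cluster 3 of DOX, against 2.07 and 2.52 CPM per kb in immune-like nuclei of EtOH and DOX.

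Single regions were also counted by direction and by the cluster in which they were most open. Over all nuclei 28 of the 232 shared member regions (12.1%) were higher in DOX by 2-fold or more and 24 (10.3%) were lower by that much, beside 13% and 13.4% of all shared regions. Outside the immune-like cluster 9 of 230 (3.91%) were higher and 22 (9.57%) lower, beside 5.36% and 8.58% of all. These shares lie near those of all regions. Of the 28 higher regions 23 were most open in immune-like nuclei among the EtOH clusters, beside 57 of all 232. In 23 of them more than 50% of the DOX counts came from immune-like nuclei, beside 60 of 232. Of the 24 lower regions 17 were most open in a hormone-sensing cluster of EtOH, beside 65 of 232, and 0 in the immune-like one. The classes differed in size between the libraries, and these counts over all nuclei include that. Regions called in both counts numbered 5 higher (17.9% of the 28 and 55.6% of the 9) and 16 lower (66.7% of the 24 and 72.7% of the 22).

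For the regions called outside the immune-like cluster, values in parts of the same nuclei are given as a description, because these nuclei took part in the call. Of the 22 lower regions 20 had a ratio below 0 within hormone-sensing luminal-like nuclei (median log2 -0.74) and 6 were at least 2-fold lower there, beside 111 and 12 of all 230 member regions. In cluster 3 of DOX against cluster 1 of EtOH, which is no comparison within a named class, 17 of the 22 were below 0 (median -0.87), beside 132 of 230. Of the 9 higher regions 0 were below 0 within hormone-sensing nuclei (median 1.2) and 6 were at least 2-fold higher there, beside 14 of 230, and 9 were at least 2-fold higher in cluster 3 of DOX against cluster 1 of EtOH (median 2.2), beside 20 of 230. Ets1 held 8 of the 22 lower regions, which is 23.5% of its 34 regions tested, beside 9.57% of all member regions and 8.58% of all shared regions.

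**Figure D3:**
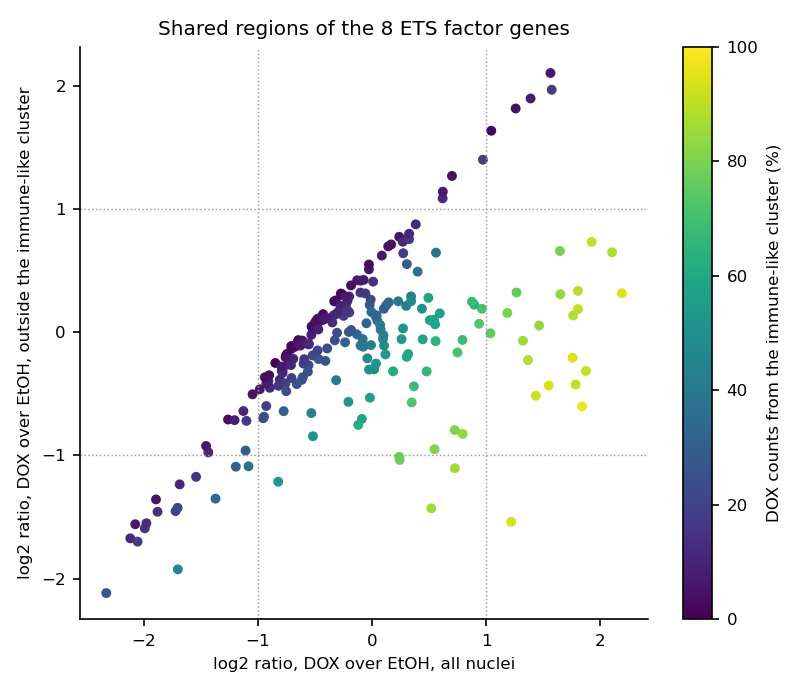
Log2 ratio of DOX over EtOH outside the immune-like cluster (vertical) against that over all nuclei (horizontal) for the 230 shared member regions with enough counts in both, coloured by the percentage of DOX counts that came from immune-like nuclei, with dotted lines at 2-fold. The points on the right that fall back to about 0 on the vertical axis are those with most of their counts in immune-like nuclei, and 5 higher and 16 lower regions pass the lines in both.

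In sequence the member regions were close to the others. In their central 300 bases an ETS core motif (AGGAAG or CGGAAG, either strand) was found in 112 of 232 member regions (48.3%) and in 46.7% of all 174940 shared regions. By gene the share ran from 8 of 26 regions (30.8%) for Elf5 to 37 of 62 (59.7%) for Etv6. Among the 28 regions higher in DOX it was 18 (64.3%) and among the 24 lower ones 11 (45.8%), as a description of few regions. A GATA motif (AGATAA) was found in 11.6% of member regions and 13.2% of all, and an AP-1 motif (TGANTCA, which can share its last base with an AGGAAG) in 23.7% and 20.9%. The Ets2 region at 9.36 kb printed above held 1 such AP-1 match, and none of the other printed pieces held one.

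To set Elf5 beside lineage genes in the same nuclei, nuclei were thinned to 20000 counts each, which left out 344 of 3071 DOX and 351 of 3104 EtOH nuclei that were shallower. After thinning, 33.4% of luminal progenitor-like EtOH nuclei (477 of 1430, 30.9% to 35.9%) and 32.3% of cluster 3 nuclei (29.7% to 35.1%) had a count in an Elf5 promoter region, against 21.3% and 27.7% in the hormone-sensing clusters of EtOH. Immune-like nuclei had a count in 7.94% (EtOH) and 12.0% (DOX). Unthinned, the shares were 50.7%, 54.7%, 43.5%, 49.1%, 16.6% and 22.1% in the same order, at median depths of 61468, 72690, 76314, 69260, 52104 and 68634 counts. The immune-like level is no plain background. Of 6.73 CPM at Elf5 promoter regions in immune-like EtOH nuclei, 4.62 CPM lay in 1 start site region (chr2:103424493-103425150). That region had 5.30 CPM in luminal progenitor-like and 3.43 and 3.20 CPM in hormone-sensing EtOH nuclei. The 21.2 kb region, chosen for its level in luminal progenitor-like EtOH nuclei, set the classes further apart. It had a count in 69.0% of luminal progenitor-like nuclei of EtOH (66.5% to 71.3%), 73.3% of those of DOX (33 of 45, 58.1% to 85.4%) and 62.2% of cluster 3 nuclei (59.3% to 64.9%). In hormone-sensing clusters 4 and 5 it had a count in 11.5% and 3.55% of EtOH and in 7.34% and 1.19% of DOX nuclei, and in immune-like nuclei in 2.78% and 2.08%. The shares in cluster 5 lay near those of immune-like nuclei.

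Nuclei outside the immune-like cluster were then split by a count in an Elf5 promoter region (727 with and 1774 without in EtOH, 464 and 1062 in DOX), and accessibility over the body of lineage genes, including 2 kb upstream, was compared. The split set lineage genes apart only weakly. In EtOH, nuclei with a count had more open Csn3 (log2 0.37, 0.15 to 0.59) and Kit (0.27, 0.02 to 0.52), both luminal progenitor genes, and less open Esr1, the oestrogen receptor gene (-0.19, -0.31 to -0.06). In DOX none of the 8 luminal progenitor and 8 hormone-sensing genes had an interval that left out 0. Over all genes 2.08% of intervals lay above and 1.74% below 0 in EtOH.

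A split by the 21.2 kb region, added after the values had been seen, set them further apart (1094 with and 1407 without in EtOH, 802 and 724 in DOX). This region was picked as the most open Elf5 region in luminal progenitor-like EtOH nuclei. Those nuclei had been named by the same luminal progenitor list, so that in EtOH the contrast follows largely from that choice. In EtOH, nuclei with a count had higher Wfdc18 (40.7 against 14.7 CPM, log2 1.46, 1.22 to 1.71), Csn3 (48.5 against 18.1 CPM, 1.43, 1.21 to 1.65), Kit (34 against 16.8 CPM, 1.02, 0.78 to 1.26) and Lbp (0.77, 0.46 to 1.09), but lower Ltf (-0.86, -1.45 to -0.30). Of the 8 luminal progenitor genes 5 had an interval above 0 and 1 below it. Of the 8 hormone-sensing genes 4 had an interval below 0, with Foxa1 at -1.27 (-1.54 to -1.0), Esr1 at -1.23 (-1.36 to -1.10), Ly6d at -0.92 (-1.27 to -0.58) and Prlr, the prolactin receptor gene, at -0.78 (-0.92 to -0.66), while the intervals of Pgr, Areg, Cited1 and Tbx3 held 0 (-0.23, -0.20, -0.19 and 0.07). Of 17 alveolar genes 7 had an interval above 0 and 2 below it. Lalba, which encodes a milk protein, had 1.40 (1.12 to 1.67), Xdh 0.66 (0.53 to 0.80) and Notch1 0.39 (0.29 to 0.48), while Tnfsf11, which encodes RANK ligand, had -0.64 (-0.97 to -0.32). In DOX most of these contrasts were smaller in value, with 0.75 (0.47 to 1.04) for Csn3, 0.67 (0.38 to 0.97) for Wfdc18, 0.35 (-0.01 to 0.71) for Kit, 0.36 (-0.13 to 0.85) for Lalba and -0.46 (-0.62 to -0.30) for Esr1, while Ltf had the other sign with an interval that held 0 (0.18, -0.29 to 0.65). Of the EtOH nuclei with a count 90.1% were in cluster 1, against 31.6% of those without, so that the EtOH contrast is largely one between clusters. Of the DOX nuclei with a count 92.8% were in cluster 3, but so were 62.6% of those without. The groups compared thus differ in make-up between the libraries, and the smaller DOX values include that. Whether the region is less closely linked to lineage genes in DOX was not tested. Over all genes 23.0% of intervals lay above and 17.7% below 0 in EtOH and 5.74% and 5.87% in DOX.

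Among the other members, Ehf was more open in nuclei with a count at the 21.2 kb region in both libraries (log2 0.15, 0.03 to 0.27 in EtOH and 0.25, 0.10 to 0.41 in DOX), as was Etv6 (0.24, 0.17 to 0.31 and 0.10, 0.01 to 0.19). Ets1 was less open (-0.23, -0.33 to -0.13 and -0.14, -0.27 to -0.01). The intervals of Elf3, Elf1 and Ets2 held 0 in both libraries, and that of Spdef left out 0 in EtOH (0.27, 0.04 to 0.51) but not in DOX (0.23, -0.10 to 0.56).

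**Figure D4:**
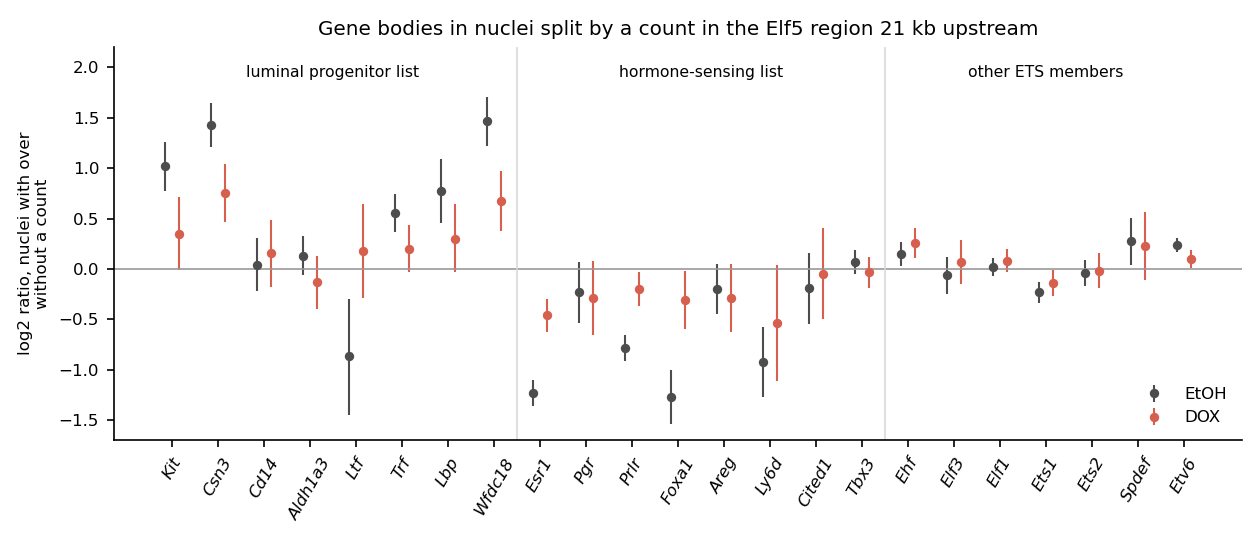
Log2 ratio of gene body accessibility in nuclei with against without a count in the Elf5 region 21.2 kb upstream, for luminal progenitor genes, hormone-sensing genes and the 7 other ETS members, in EtOH and DOX, with exact 95% counting intervals, after thinning to 20000 counts a nucleus. Csn3 lies at 1.43 in EtOH and 0.75 in DOX and Esr1 at -1.23 and -0.46, while each of the ETS members lies between -0.23 and 0.27.

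The 18 other ETS factor genes of the mouse with an annotation had a median window ratio of 0.12 over all nuclei and 0.00 outside the immune-like cluster. Of their 15 promoters measured, 3 were at least 1.5-fold higher over all nuclei and 1 outside the immune-like cluster, beside 6.23% and 2.67% of all gene promoters. Spi1, which encodes the myeloid factor PU.1, had a promoter ratio of 1.51 over all nuclei and 0.08 outside the immune-like cluster. Fli1, known from blood and endothelium, had 0.86 and -0.48. Elk4, a partner of serum response factor, kept its direction with 1.29 and 1.21, and cluster 3 of DOX against cluster 1 of EtOH gave 1.21 (1.09 to 1.34).

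Of the 18 genes of the prolactin and alveolar programme, 2 windows were at least 1.5-fold lower over all nuclei and 0 outside the immune-like cluster. Beside them stood 4.85% and 1.31% of all gene windows. The median over the 18 windows was -0.22 and 0.04. Of their 17 promoters measured 5 were at least 1.5-fold lower over all nuclei and 2 outside the immune-like cluster, beside 6.01% and 2.55% of all gene promoters. None was 1.5-fold higher in either, beside 6.23% and 2.67%. Lower outside the immune-like cluster were the milk protein genes Lalba (log2 -1.13) and Wap (-0.78). Between cluster 3 of DOX and cluster 1 of EtOH, the promoters of Lalba (-1.7, -1.85 to -1.55), Wap (-1.37, -1.68 to -1.06) and Csn3 (-0.41, -0.52 to -0.31) were lower, and the Elf5 promoter differed by -0.01. Other promoters of the alveolar list went both ways, with Xdh at -0.13 (-0.20 to -0.07) and Btn1a1 at 0.19 (0.01 to 0.37). The Csn1s2b promoter had 2.01 (0.87 to 3.34), from levels of only 0.634 and 0.157 CPM, and the intervals of Csn1s1 and Csn1s2a held 0. The luminal progenitor genes did not move together in this comparison, with the Kit promoter at -0.88 (-1.0 to -0.76) and the Ltf promoter at 1.77 (1.51 to 2.04). Trps1 itself had promoter ratios of 0.68 over all nuclei and 0.35 outside the immune-like cluster. A hairpin acts on RNA, so that accessibility is no check of the knockdown.

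Over the 11 sums by cluster and library with at least 50 nuclei, the genes whose window level followed that of Elf5 most closely among 19400 were Slc18a2 (Pearson r 0.99), Sox10 (0.98), Hhipl2 (0.98), Bpifb6 (0.98) and Nedd4l (0.98). These sums share libraries and depth, and r is given as a description. Among the genes of the lists, the window of Elf5 followed those of Kit (0.97), Csn3 (0.96), Epcam (0.94) and Ehf (0.90), less closely that of Aldh1a3 (0.69) and not that of Wfdc18 (-0.21), both of the luminal progenitor list, and ran opposite to that of the leukocyte gene Ptprc (-0.86). Etv6 ran opposite to Esr1 (-0.95) and followed Fli1 (0.89), and Ets1 followed the basal genes Snai2 (0.91) and Trp63 (0.89).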

How the data were processed

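Nuclei of mammary organoids of both groups were profiled by single-cell ATAC-sequencing. The authors aligned the reads to mm10 with Cell Ranger (cellranger-atac 2.0.0 per the file headers) and called peaks separately in each library, and the deposited values are raw counts of transposase cuts per peak and nucleus, 224762118 in DOX and 211963715 in EtOH. Both ends of a fragment are counted, so counts were divided by 2 before exact intervals were computed, and reads are not independent molecules beyond that. Peaks of the libraries were merged where they overlapped by 1 bp or more, and a library's counts were scaled to its total in the 174940 shared regions, which held 94.7% and 94.8% of all counts. Over shared regions the median log2 ratio was -0.13 for all nuclei, which is the level against which ratios of single regions can be read. Genes were taken from GENCODE M21 as the deposited peaks are on mm10, and no peak lay beyond a chromosome end. Log2 ratios carry conditional binomial, CPM Poisson and shares Clopper-Pearson intervals. Regions with at least 100 counts were called at 2-fold, windows and promoters at 1.5-fold. Clusters came from TF-IDF, SVD components 2 to 30, 15 neighbours and Leiden at resolution 0.5, on 174378 regions after 562 of ETS factor genes were left out, and the thresholds for naming a cluster were set after its markers had been seen. No doublet caller was run. The named genes were the 8 members, 18 other ETS genes, 18 alveolar genes, the marker lists, Trps1, each member's promoters and the regions of its highest and lowest ratio with at least 200 counts, and the 5 genes most like Elf5. Some regions that this rule picks are not reported here. Other regions named were chosen after their values had been seen. The members and lists were chosen with earlier results of these data known. Ratios and intervals were tested on simulated counts. Alternatives were other scaling, filters, overlap, nuclei, window and resolution. Python 3.11.15, numpy 2.4.6, scipy 1.17.1, pandas 2.3.3, scikit-learn 1.9.0, leidenalg 0.10.2 and matplotlib 3.10.9 were used.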

Additional observations from a re-analysis of the deposited data

How the results depend on the processing

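With 1 library per group, no replicate could be left out and depth limits only the counting error. No paired analysis was possible because DOX and EtOH are single libraries. Leaving out immune-like nuclei changed the count of member regions at least 2-fold higher in DOX from 28 to 9 and the Elf5 window ratio from -0.36 to -0.0294, and turned the direction of the Ehf window (0.0345), the Elf5 promoter (0.12) and the Elf3 promoter (0.15). The Elf5 window ratio was -0.24 with the median ratio set to 0, -0.42 without the deepest 5% of nuclei, -0.30 with each nucleus counted once per peak and -0.40 within 10 kb of start sites. This narrower window gave 14 lower regions in place of 24 and -0.67 for Spdef. The Ets1 window turned to 0.00534 with the median of single regions set to 0, which is not the median of gene windows, and to 0.00909 within 10 kb. At resolution 1 the Elf5 window level of luminal progenitor-like EtOH nuclei was 228 CPM in place of 214, over 640 in place of 1638 nuclei. Of 112 alternative values planned, 65 moved by less than their counting error or, for counts of regions, by less than 1.5 times, 42 moved further and 5 turned the direction of a value whose counting interval left out 0. The Elf1 window (0.11 and 0.01) and the Ets2 promoter (0.10), whose intervals held 0, also changed sign, with the median set to 0 or, for Elf1, each nucleus counted once. The split by the 21.2 kb region was chosen after seeing the data and gave 1.02 for Kit and 1.43 for Csn3 in place of 0.27 and 0.37 by promoter.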
